A study of Mus musculus with 123 samples.

Results

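Trp53, the gene that encodes the transcription factor p53, and 8 genes known as p53 targets were followed in single mouse embryos that lack Oct4 or Sox2. The 9 genes were taken by symbol from a table of 29022 genes, and all 9 were present and passed the filter on low counts in every fit. They were chosen with earlier results of these data known. They are Trp53, Mdm2, Cdkn1a, Ccng1, Phlda3, Rps27l, Trp53inp1, Zmat3 and Bbc3. Their levels are given for every embryo of the series, in 16 groups, in CPM: a gene's UMIs (unique molecular identifiers, which mark single captured transcripts) scaled to a total of 1000000 UMIs in the same embryo. The table holds 3′-end counts, so levels are compared between embryos for 1 gene and not between genes. Trp53 (ENSMUSG00000059552) lies at chr11:69580359-69591873 on the plus strand of GRCm38. An annotated processed copy of it, Trp53-ps, is not among the genes of the table, and how reads shared with it were counted is not stated. Cdkn1a (ENSMUSG00000023067, chr17:29090976-29100727, plus strand) overlaps the antisense gene AC167363.2, and the strand used in counting is not stated, while the other 8 genes overlap no annotated gene.

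The embryos came from an Oct4 line (68 embryos) and a Sox2 line (55 embryos), both labelled B6C3F1. KO embryos had neither maternal nor zygotic copies of the gene: the floxed maternal allele was removed in the oocyte by Zp3-Cre, and the paternal allele was a knockout that carries a fluorescent reporter (mKO2 in Pou5f1, the gene of Oct4, or EGFP in Sox2). Ctrl embryos, their comparison group, also lacked the maternal gene but kept 1 intact allele from the father. MWT embryos had mothers with an intact gene. Morulae were whole embryos at E2.75, whereas early and late inner cell masses (ICMs, E3.75 and E4.5) were isolated by immunosurgery from embryos cultured from E2.5 with the MEK inhibitor PD0325901 at 1 µM, so that a change of stage was also a change of culture and isolation. There were 8 Ctrl and 8 KO embryos at each stage of each line. Of MWT embryos 7 were Oct4 morulae, 5 and 8 were Oct4 ICMs of the early and late stage, and 7 were Sox2 ICMs of the early stage. For the 13 Oct4 MWT ICMs the sample titles and another label field disagree on the stage, and the titles were used, so that no embryonic day is taken for them. The labels of the 5 early ones also name no MEK inhibitor, although the protocol names it for ICMs in general. The labels do not say which embryos were littermates, so p-values measure the spread between these embryos.

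p53 is made and degraded continuously in unstressed cells and accumulates after DNA damage and other stresses. It then binds a response element made of a pair of decamer half-sites and raises the transcription of genes that stop the cell cycle, repair DNA or start apoptosis. One of these targets, Mdm2, encodes the ubiquitin ligase that marks p53 for degradation, which closes a negative feedback loop. Because p53 activity is set largely at the protein level, its mRNA and the mRNAs of its targets need not move together.

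A match to the response element was found in 1 promoter window each of 3 targets. RefSeq promoter windows (GRCm38.p6, the build that the files also use, from 250 bases before to 50 bases after each annotated start; 300 bases) were found for 7 of the 9 genes, and Trp53inp1 and Zmat3 had no window. A p53 element was searched by name as 2 directly adjacent 10-base half-sites with at most 1 mismatch, which could not fall on the fixed C or G of a half-site's core. Such an element was present in 22 of 32851 windows (0.067%, a share of windows and not of genes). Of the 7 genes, some of which had more than 1 window, 3 had one. The windows that hold an element in those 3 genes are printed 5′ to 3′ on the gene's strand with the 20-base element in capitals. They lie at chr17:29090729-29091028 (plus strand) for Cdkn1a, at chr11:40755237-40755536 (minus strand) for Ccng1 and at chr9:66946163-66946462 (plus strand) for a second start of Rps27l.
Cdkn1a: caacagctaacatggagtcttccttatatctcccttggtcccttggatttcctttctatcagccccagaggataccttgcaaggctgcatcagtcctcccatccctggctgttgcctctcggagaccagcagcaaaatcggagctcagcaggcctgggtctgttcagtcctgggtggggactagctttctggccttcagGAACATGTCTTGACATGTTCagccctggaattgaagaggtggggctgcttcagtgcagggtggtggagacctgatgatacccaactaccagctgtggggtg
Ccng1: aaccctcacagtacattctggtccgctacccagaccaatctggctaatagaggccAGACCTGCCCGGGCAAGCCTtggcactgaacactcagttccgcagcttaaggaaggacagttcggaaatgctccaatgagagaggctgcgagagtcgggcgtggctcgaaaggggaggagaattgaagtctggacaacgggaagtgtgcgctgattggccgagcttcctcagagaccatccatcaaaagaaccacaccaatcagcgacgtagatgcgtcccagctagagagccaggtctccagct
Rps27l: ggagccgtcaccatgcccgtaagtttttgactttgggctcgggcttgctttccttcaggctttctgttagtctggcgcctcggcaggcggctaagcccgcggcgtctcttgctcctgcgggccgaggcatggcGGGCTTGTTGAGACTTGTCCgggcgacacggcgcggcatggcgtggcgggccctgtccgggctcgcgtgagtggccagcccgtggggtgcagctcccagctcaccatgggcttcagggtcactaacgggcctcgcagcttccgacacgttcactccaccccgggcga
The element began 51 bases before the annotated start of the printed window in Cdkn1a, 195 bases before it in Ccng1 and 117 bases before it in Rps27l. The other Cdkn1a window (chr17:29093519-29093818) and the other Rps27l window (chr9:66945836-66946135) held no element. The printed Rps27l window lies inside the gene as annotated (chr9:66946086-66949516). A single perfect half-site, which 8.36% of all windows hold, was present in the windows of Trp53 and Mdm2, and neither an element nor a perfect half-site was present in those of Phlda3 and Bbc3. These matches are a description of the letters in these windows.

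The depth was 525755 to 1344035 UMIs per embryo. The knocked-out gene followed the labels: Pou5f1 averaged 0.41, 1.03 and 0.16 CPM in Oct4 KO embryos at the 3 stages in order against 20.8, 80.6 and 43.8 CPM in Ctrl, and Sox2 averaged 1.57, 23.6 and 16.1 CPM in Sox2 KO against 13.8, 109.2 and 183.4 CPM in Ctrl. The ICM label was checked against markers. In Oct4 KO late ICMs the 8 trophectoderm markers summed to 1193 to 2958 CPM against 132 to 961 CPM in Ctrl, and the 10 epiblast markers to 516 to 1409 CPM against 3172 to 4736 CPM. Of these markers, 7 of 8 trophectoderm genes were called higher and 10 of 10 epiblast genes called lower, and no marker of either list was at 0 in a whole ICM group. The epiblast list holds Pou5f1 and Sox2, so its counts and sums include the knocked-out gene itself in both lines. Of 6 primitive endoderm genes tested there, 4 were called lower, among them Sox17 (-6.57) and Gata4 (-3.63), and Gata6 was called higher (1.25), while the sums over the 8 genes overlapped at 440 to 753 CPM in KO and 230 to 1311 CPM in Ctrl. Of the Sox2 Ctrl late ICMs, 1-10 and 2-6 had trophectoderm sums of 2771 and 1986 CPM, above the other 6 at 167 to 969 CPM. In whole ICMs, fewer cells of a type and less RNA per cell cannot be told apart.

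Trp53 mRNA was lower in KO ICMs of both lines, and its lowest levels were those of Oct4 KO late ICMs. Trp53 averaged 58.9 ± 10.7 CPM in Oct4 Ctrl morulae and 47.1 ± 15.6 CPM in Oct4 KO morulae (SD, n = 8 each). In Oct4 early ICMs the lowest, median and highest Trp53 values were 72.9, 118.5 and 148.5 CPM in Ctrl and 18.9, 28.6 and 53.8 CPM in KO. In Oct4 late ICMs they were 33.0, 98.6 and 139.1 CPM in Ctrl and 1.45, 11.8 and 22.7 CPM in KO. In both ICM stages every Oct4 KO embryo was below every Ctrl embryo, while the morula groups overlapped. A gene was called where edgeR's quasi-likelihood test gave a Benjamini-Hochberg adjusted p under 0.05 over all genes tested and the log2 fold change was at least 1 in size. On that rule Trp53 was called lower in Oct4 KO early ICMs (log2 fold change -1.73 ± 0.27 SE, adjusted p = 4.15e-07), where 6.11% of all genes were called lower, and in late ICMs (-2.66 ± 0.32, adjusted p = 5.29e-11), where 8.85% were. Markers moved in the early ICMs too: 7 of 10 epiblast genes were called lower, with sums of 1541 to 2267 CPM in KO and 2548 to 4194 CPM in Ctrl, and of 8 trophectoderm genes 2 were called higher and 1 lower, with sums of 465 to 1330 CPM and 161 to 1215 CPM. Of 6 primitive endoderm genes 2 were called lower, Sox17 (-4.72) and Pdgfra (-2.31). The epiblast counts and sums include Pou5f1, the knocked-out gene. The part of these shifts in the Trp53 change was not tested at either stage. The KO effect on Trp53 did not differ between late and early ICMs beyond the threshold (-0.92 ± 0.43, adjusted p = 0.229). In morulae it was not called (-0.27 ± 0.27, adjusted p = 0.786), and 0.626% of genes were called lower there and 0.178% higher, with no member in either direction.

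Trp53 was also lower in Sox2 KO ICMs. In Sox2 early ICMs the lowest, median and highest Trp53 values were 84.1, 129.0 and 242.5 CPM in Ctrl and 45.2, 63.2 and 89.8 CPM in KO. In Sox2 late ICMs they were 7.75, 100.7 and 147.4 CPM in Ctrl and 25.6, 34.0 and 69.7 CPM in KO. The groups overlapped at both stages, although every Sox2 KO embryo was below the Ctrl median. Trp53 was called lower in Sox2 KO early ICMs (log2 fold change -1.09 ± 0.25, adjusted p = 0.00218; 1.69% of genes called lower) and late ICMs (-1.14 ± 0.27, adjusted p = 0.00142; 3.61%). With limma on rlog values these changes were -0.93 and -0.78, under the fold minimum, so that neither was called. With the same-numbered embryos alone, 4 Ctrl and 4 KO per stage, they were -1.13 (adjusted p = 0.0738) and -1.15 (adjusted p = 0.11), and neither was called. With the number as a block on these embryos Trp53 was called at both stages. Late ICMs fall into 2 label sets, described below, and within set 1 alone Trp53 was not called (-0.73, adjusted p = 0.445). In Sox2 KO early ICMs 5 of 10 epiblast genes were called lower and 4 of 8 trophectoderm genes higher, with epiblast sums of 1680 to 2235 CPM in KO and 2157 to 4562 CPM in Ctrl and trophectoderm sums of 507 to 1936 CPM and 138 to 490 CPM. In late ICMs 5 epiblast genes were lower and 3 trophectoderm genes higher, with epiblast sums of 1649 to 2506 CPM in KO and 3131 to 5102 CPM in Ctrl, which did not overlap, and trophectoderm sums of 593 to 1769 CPM and 167 to 2771 CPM, which did. The epiblast counts and sums at both stages include Sox2, the knocked-out gene. The part of these shifts in the fall of Trp53 was not tested. The lowest Trp53 value of the Sox2 Ctrl late ICMs, 7.75 CPM, belonged to embryo 1-10. Embryo 2-6, with the next highest trophectoderm sum, had Trp53 at 108.8 CPM, above the group median. In Sox2 morulae Trp53 averaged 55.7 ± 17.5 CPM in Ctrl and 45.1 ± 12.6 CPM in KO (SD, n = 8 each) and no member was called, where 0% of genes were called higher and 0.00712% lower, which is 1 gene.

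The KO effect on Trp53 was larger in the Oct4 line than in the Sox2 line in late ICMs. The difference between both effects was -1.52 ± 0.42 (log2, adjusted p = 0.0126), and Trp53 was the 1 member called in that comparison, in which 6.3% of all genes were called. In early ICMs the difference was -0.65 ± 0.37 (adjusted p = 0.305), with no member called against 5.52% of genes. Across groups, Trp53 was highest in Sox2 Ctrl early ICMs (142.5 ± 52.5 CPM), followed by Oct4 Ctrl early ICMs (113.8 ± 23.8), Sox2 MWT early ICMs (106.1 ± 30.3) and Oct4 MWT late ICMs (105.9 ± 21.8). It was lowest in Oct4 KO late ICMs (12.7 ± 7.7), then in Oct4 KO early ICMs (32.5 ± 11.7) and Sox2 KO late ICMs (38.0 ± 14.2), all as mean ± SD. The 4 highest groups each differed from the next by less than the larger of their SDs, as did Oct4 KO early and Sox2 KO late ICMs, whereas Oct4 KO late ICMs were below both by more than either SD.

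**Figure D1:**
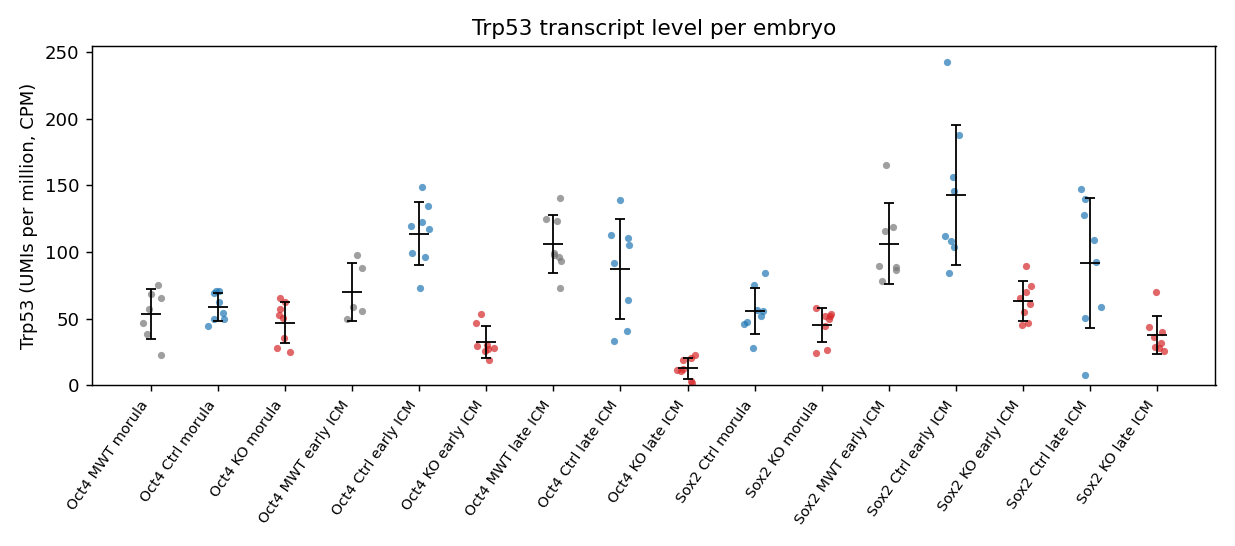
Trp53 level of every embryo in the 16 groups, in CPM (linear axis from 0); points are embryos and bars are mean ± SD. In Oct4 KO late ICMs the 8 embryos lie between 1.45 and 22.7 CPM, all below the 8 Ctrl embryos at 33.0 to 139.1 CPM.

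While Trp53 fell, 4 of its 8 target genes rose in Oct4 KO late ICMs: Cdkn1a, Ccng1, Trp53inp1 and Zmat3. Among all genes tested, 9.25% were called higher in this comparison. The members were chosen with earlier results of these data known, so this share is background and not a test of the list. The median log2 fold change of the 9 genes was 1.11 against -0.01 over all genes, and 8 of the 9 values were above 0. Cdkn1a encodes the cyclin-dependent kinase inhibitor p21, which holds cells in G1. Its lowest, median and highest values were 36.9, 105.8 and 212.6 CPM in Ctrl and 70.2, 235.7 and 473.9 CPM in KO. The groups overlapped, with 7 of 8 KO embryos above the Ctrl median, and the log2 fold change was 1.33 ± 0.43 (adjusted p = 0.0123). Ccng1, which encodes cyclin G1, ranged over 101.7, 153.4 and 263.5 CPM in Ctrl and 223.1, 414.0 and 677.4 CPM in KO. All 8 KO embryos exceeded the Ctrl median, and the change was 1.49 ± 0.31 (adjusted p = 6.15e-05).

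Trp53inp1 and Zmat3 also rose. Trp53inp1 encodes a stress-induced protein that acts in p53 signalling and autophagy, and its lowest, median and highest values were 33.4, 44.6 and 99.96 CPM in Ctrl and 43.7, 102.2 and 160.7 CPM in KO. The ranges overlapped, with 7 of 8 KO embryos above the Ctrl median (log2 fold change 1.11 ± 0.28, adjusted p = 9.77e-04). With limma on rlog values the change of Trp53inp1 was 0.96, under the fold minimum, and it was not called. Zmat3 encodes a zinc-finger protein that binds RNA, and its values were 2.751, 10.8 and 18.2 CPM in Ctrl and 11.9, 24.5 and 39.6 CPM in KO. All 8 KO embryos were above the Ctrl median for Zmat3 (1.44 ± 0.37, adjusted p = 0.00121), although the ranges overlapped.

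The other 4 targets did not pass both thresholds in Oct4 KO late ICMs. Phlda3, which encodes a pleckstrin-homology protein that limits Akt signalling, averaged 120.2 ± 68.8 CPM in KO and 68.8 ± 20.3 CPM in Ctrl (SD, n = 8 each), and its change of 0.91 ± 0.37 (adjusted p = 0.0485) was under the fold minimum. Bbc3, the gene of the pro-apoptotic BH3-only protein Puma, had values of 1.26, 6.20 and 36.1 CPM in KO and 1.37, 5.35 and 12.7 CPM in Ctrl, and its change of 1.19 ± 0.51 missed the p threshold (adjusted p = 0.0618). Only 3 KO embryos exceeded the Ctrl maximum for Bbc3, and all 3 came from label set 1, described below. Rps27l, a ribosomal protein S27-like gene, changed by 0.34 ± 0.16 (adjusted p = 0.0927), and Mdm2 by 0.31 ± 0.21 (adjusted p = 0.266). Mdm2 averaged 90.3 ± 16.2 CPM in KO and 77.7 ± 23.1 CPM in Ctrl (SD, n = 8 each) and the groups overlapped.

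The trophectoderm and epiblast sums given above, but not the primitive endoderm sum, differed between the same Oct4 KO and Ctrl late ICMs without overlap, and their part in the rise of the targets was not tested. The Sox2 Ctrl late ICMs 1-10 and 2-6, which had the highest trophectoderm sums of their group, differed from each other in several targets. Cdkn1a was 67.6 CPM in 1-10 and 27.2 CPM in 2-6 (group median 51.1), Phlda3 was 42.1 and 20.1 CPM (26.6), and Bbc3 was 5.54 and 1.18 CPM (3.92). Mdm2 was 75.3 and 45.0 CPM (57.2), which were the highest and the lowest value of the group. These 4 targets and Trp53 lay on opposite sides of the median in the pair. Ccng1 (89.7 and 95.8 CPM, median 113.3) and Trp53inp1 (31.0 and 27.2 CPM, median 37.9) were below the median in both. Rps27l (944.9 and 1069 CPM, median 935.2) and Zmat3 (9.97 and 10.6 CPM, median 9.70) were above it in both.

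**Figure D2:**
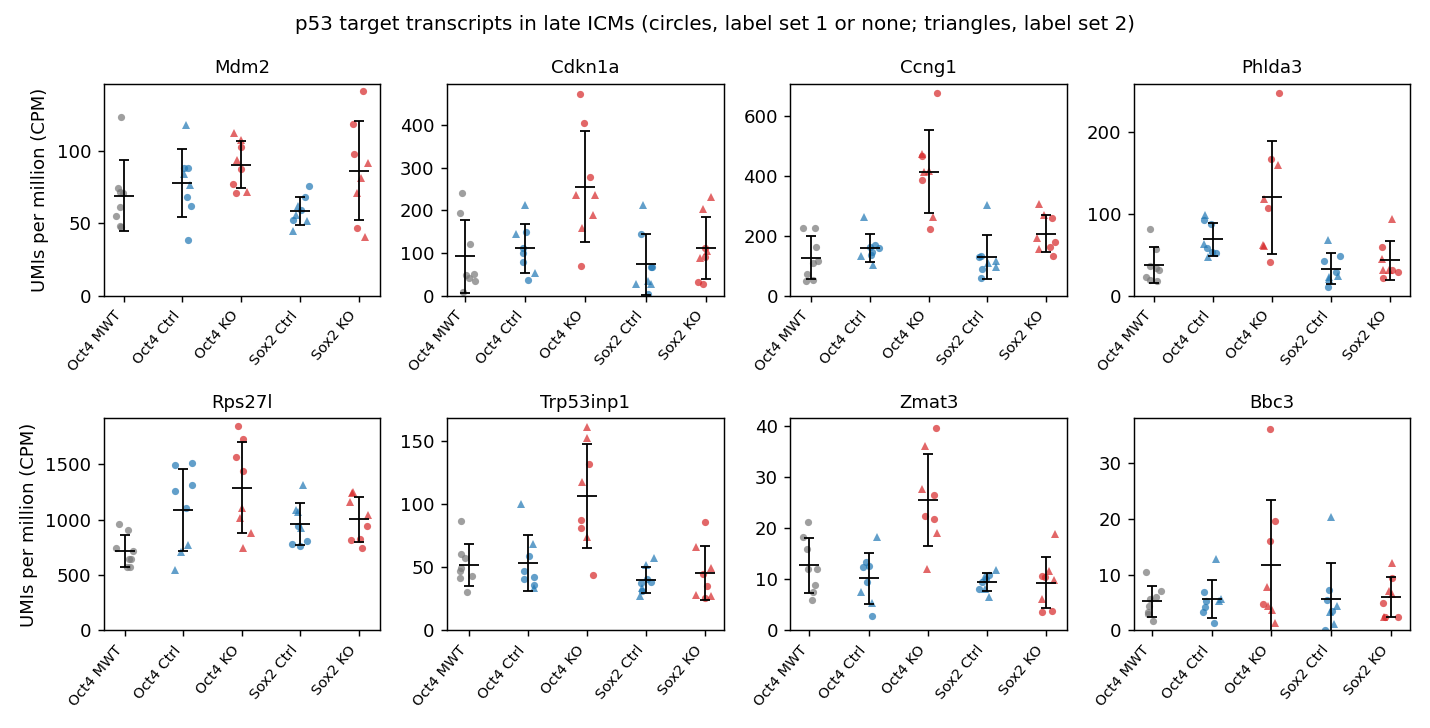
Level of the 8 target genes in every late ICM, in CPM (linear axes from 0, one scale per gene); circles are label set 1 or embryos with no set, triangles are label set 2, and bars are mean ± SD. Ccng1 in Oct4 KO lies at 223.1 to 677.4 CPM against 101.7 to 263.5 CPM in Ctrl, while the Mdm2 groups overlap.

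In Oct4 KO early ICMs, where Trp53 was already low, no target was called, and 4.77% of all genes were called higher. Cdkn1a had values of 117.5, 258.9 and 449.0 CPM in Ctrl and 44.5, 301.2 and 497.8 CPM in KO (log2 fold change 0.24 ± 0.41, adjusted p = 0.746). Ccng1 averaged 244.8 ± 88.3 CPM in KO and 262.3 ± 61.4 CPM in Ctrl. Phlda3 (-0.85 ± 0.41, adjusted p = 0.136) and Zmat3 (-0.73 ± 0.36, adjusted p = 0.141) had values below 0 and were not called. With the same-numbered embryos alone, only 2 Ctrl and 2 KO, Phlda3 was called lower (-1.38, adjusted p = 0.00977). With the number as a block on these embryos it was -1.41 (adjusted p = 0.00169). The KO effect differed between late and early ICMs for 3 targets: Zmat3 by 2.17 ± 0.52 (log2, adjusted p = 0.00517), Phlda3 by 1.76 ± 0.55 (adjusted p = 0.0460) and Ccng1 by 1.53 ± 0.43 (adjusted p = 0.0214). In that comparison 3.11% of all genes were called. Phlda3 was not called there with DESeq2 or with scaling by totals alone (adjusted p of up to 0.0571). The difference for Cdkn1a, 1.09 ± 0.59, was not called (adjusted p = 0.330).

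In Sox2 KO ICMs none of the 8 targets was called, against 1.57% of genes called higher in early and 3.34% in late ICMs. Mdm2 came closest. Its lowest, median and highest values were 34.9, 47.1 and 77.8 CPM in Ctrl and 60.6, 68.9 and 117.0 CPM in KO early ICMs, and every KO embryo was above the Ctrl median. The change of Mdm2 was 0.69 ± 0.21 in early ICMs (adjusted p = 0.0294) and 0.64 ± 0.21 in late ICMs (adjusted p = 0.0276), both under the fold minimum. Ccng1 was 0.78 ± 0.31 in late ICMs (adjusted p = 0.0794), with all 8 KO embryos above the Ctrl median, and Cdkn1a was 0.71 ± 0.45 (adjusted p = 0.320). For Cdkn1a the difference between the Oct4 and Sox2 KO effects in late ICMs was 0.62, with a 95% interval from -0.60 to 1.83, and for Ccng1 it was 0.71 (-0.14 to 1.56). Neither difference was called, and both intervals include 0. The Sox2 KO effect did not differ between late and early ICMs for any member, where 0.0427% of genes were called.

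**Figure D3:**
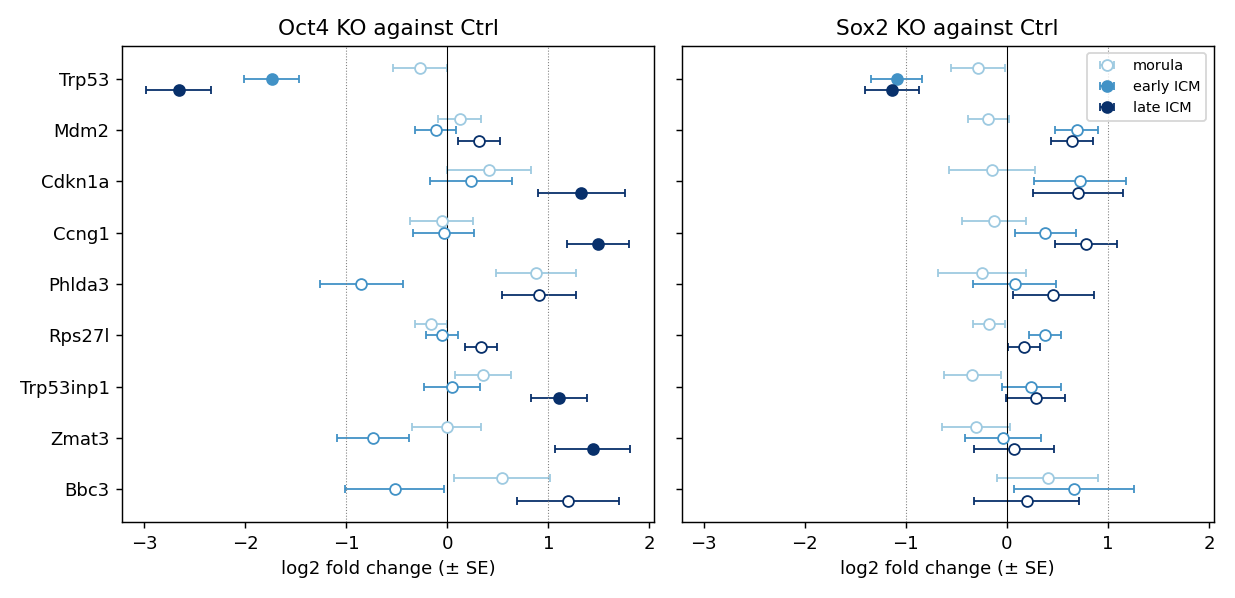
Log2 fold change of KO against Ctrl (± SE) for the 9 genes at each of the 3 stages, for the Oct4 and the Sox2 line; filled points passed both thresholds. Trp53 is filled on the negative side in all 4 ICM comparisons, and Cdkn1a, Ccng1, Trp53inp1 and Zmat3 are filled on the positive side in Oct4 KO late ICMs alone.

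The wider p53 pathway was described with lists of 24 regulators and 31 other targets, of which 21 and 29 could be tested. In Oct4 KO late ICMs 5 of 29 other targets were called higher and 1 lower, where 9.25% and 8.85% of all genes were, with a median log2 fold change over the list of -0.04 against -0.01 over all genes. Those with the largest changes were Pmaip1 (2.50), which encodes the BH3-only protein Noxa, the antiproliferative gene Btg2 (2.41), the desmosome and apoptosis gene Perp (2.15) and the PIDDosome gene Pidd1 (1.46), while the kinase gene Plk2 was lower (-1.95). The regulators had 1 of 21 genes called higher, Ppp1r13l (1.35), which encodes the p53 inhibitor iASPP. That call was absent with limma on rlog values, with only the 2 groups fitted, with label set as a block and without the KO embryo 1-2. Plk2 was not called without any one of the Ctrl embryos 1-2 and 1-6 or the KO embryos 1-2, 1-8, 2-2, 2-5 and 2-6, and 2 other targets were lower without Ctrl 1-9. With totals alone 1 regulator and 2 other targets were lower, and with thinned counts 2 other targets were. Without the fold minimum the counts were 9 other targets higher and 3 lower, and 2 regulators higher and 7 lower, where 4450 of 14053 genes were called in either direction. In Oct4 KO early ICMs, where 4.77% of all genes were called higher and 6.11% lower, 2 other targets were higher and 3 lower. Pmaip1 (1.98) and the DNA damage-binding gene Ddb2 (1.09) were the higher ones and Plk2 (-2.99), Psrc1 (-2.44) and Ak1 (-1.65) the lower ones. The lower ones were 2 rather than 3 with DESeq2, RLE scaling, no filter, thinned counts, limma on rlog values, all embryos in the fit or only the 2 groups, and the higher ones were 1 with thinned counts or limma. Among the 21 regulators there, 2 were lower, Usp7 (-1.12), the deubiquitinase of Mdm2 and p53, and the kinase gene Hipk2 (-1.80). With the same-numbered embryos alone no regulator was lower there, and with limma on rlog values or no filter 1 was. In Sox2 KO late ICMs 4 of 29 other targets were called higher and 2 lower, where 3.34% and 3.61% of all genes were: Dram1 (1.56), Psrc1 (1.25), Gadd45a (1.09) and Pidd1 (1.06) against Rrm2b (-1.44) and Ei24 (-1.01). These counts fell to 2 higher and 2 lower with scaling by totals alone or with thinned counts, to 3 and 0 with limma on rlog values, to 1 and 0 with the same-numbered embryos alone, and to as few as 2 and 1 with 1 embryo left out. In Sox2 KO early ICMs (1.57% of all genes higher and 1.69% lower) Gadd45a (1.13) and the regulator Trp53bp2 (1.63) were higher and Ei24 (-1.10) lower, and in Oct4 KO morulae (0.178% and 0.626%) Trp53bp2 was lower (-2.36), each of these being 1 gene of its list. No other target was higher in Sox2 KO early ICMs with DESeq2, totals alone or limma on rlog values. The same held with only the 2 groups fitted and with the same-numbered embryos, blocked or not. None was lower there with limma or with the same-numbered embryos not blocked, and the latter also gave no regulator higher. In Oct4 KO morulae no regulator was lower with the same-numbered embryos, blocked or not.

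Some members also changed with stage in Ctrl embryos, in numbers close to those over all genes at 3 of the 4 steps and in none at the last. From morula to early ICM in the Oct4 line, Ccng1 rose by 1.16 ± 0.31 (log2, adjusted p = 0.00112) and Rps27l fell by 1.04 (SE 0.16, adjusted p = 3.82e-08), so 2 of 9 members were called where 29% of all genes were. From early to late ICM Rps27l rose by 1.12 ± 0.16 (adjusted p = 1.71e-08) and Cdkn1a changed by -1.29 ± 0.43 (adjusted p = 0.0149), which makes 2 of 9 against 15.6%. The late Ctrl embryos cover 2 label sets, described below. Rps27l averaged 1336 CPM in set 1 and 674 CPM in set 2, against 529 CPM in early ICMs. In the Sox2 line Trp53 rose by 1.29 ± 0.25 (adjusted p = 9.43e-06) and Cdkn1a changed by -1.09 ± 0.45 (adjusted p = 0.0335) from morula to early ICM, 2 of 9 against 31.9%. For Cdkn1a the Ctrl morula 12 was at 267.1 CPM and the next highest at 132.9 CPM. The comparison was not recomputed without it, so how far the call rests on this embryo is not known. Between early and late ICMs of the Sox2 line no member was called, against 2.9%. Rps27l had opposite directions in the lines at the first step, since it averaged 1016 then 529 CPM in Oct4 Ctrl and 447 then 846 CPM in Sox2 Ctrl. The difference between lines was not tested. Markers moved with stage too. From morula to early ICM, 9 of 10 epiblast and 4 of 6 primitive endoderm genes were called higher in Oct4 Ctrl. In Sox2 Ctrl 5 epiblast and 4 primitive endoderm genes were higher and 5 of 8 trophectoderm genes lower. From early to late ICM in Oct4 Ctrl, 4 epiblast and 3 primitive endoderm genes were higher and 2 primitive endoderm genes lower. The part of these shifts in the member changes was not tested.

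MWT embryos, whose mothers had the gene intact, were compared with Ctrl embryos, which lack the maternal gene. In the Oct4 line no member was called in morulae (0.0646% of genes called), early ICMs (0.373%) or late ICMs (0.797%). Rps27l in Oct4 late ICMs, 720 ± 146 CPM in MWT and 1088 ± 371 CPM in Ctrl (SD, n = 8 each), changed by -0.69 ± 0.16 (adjusted p = 0.00673) and was under the fold minimum. The Ctrl mean covers 2 label sets, described below, of which set 1 averaged 1336 CPM and set 2 averaged 674 CPM for Rps27l, while MWT embryos ranged from 572 to 960 CPM. Of 6 primitive endoderm markers tested, 4 were called lower in these MWT embryos, and the part of either in the difference was not tested. In Sox2 early ICMs 1 member, Bbc3, was called higher in MWT (2.00 ± 0.53, adjusted p = 0.0112), where 2.58% of genes were called. The primitive endoderm sums were 951 to 1447 CPM in these MWT embryos and 186 to 858 CPM in Ctrl, without overlap, and 3 epiblast, 1 trophectoderm and 1 primitive endoderm marker were called, and their part in the change of Bbc3 was not tested. Bbc3 had values of 4.35, 10.0 and 19.8 CPM in MWT and 0, 2.88 and 5.19 CPM in Ctrl, and the groups overlapped. Mdm2 was 0.84 ± 0.23 (adjusted p = 0.0144) there and under the fold minimum.

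Late ICMs of both lines carry replicate numbers that begin with 1 or 2, and these label sets, whose meaning the labels do not state, separated Rps27l within the Oct4 line. In the Oct4 line Rps27l averaged 1336 ± 170 CPM (n = 5) in set 1 and 674 ± 117 CPM (n = 3) in set 2 of Ctrl, and 1645 ± 180 and 934 ± 157 CPM (n = 4 each) in sets 1 and 2 of KO, all as mean ± SD. Within each genotype the sets did not overlap, and Rps27l was called lower in set 2 (-1.003 ± 0.112, adjusted p = 1.12e-06), the 1 member called where 1.36% of genes were. In the Sox2 line Rps27l was higher in set 2 by 0.47 ± 0.11 (adjusted p = 0.0175), under the fold minimum, and no member was called where 0.474% of genes were. For Rps27l the sets ran in opposite directions in the 2 lines, and this difference was not tested. Trp53 averaged 68.6 ± 33.7 CPM in set 1 and 118.3 ± 18.2 CPM in set 2 of Oct4 Ctrl, and 7.15 ± 5.50 and 18.2 ± 5.24 CPM in Oct4 KO. In the Sox2 line Trp53 averaged 61.3 ± 49.7 and 122.1 ± 25.8 CPM in Ctrl and 35.1 ± 6.30 and 40.8 ± 20.2 CPM in KO. The change of Trp53 from set 1 to set 2 was 0.98 ± 0.39 in the Oct4 line (adjusted p = 0.151) and 0.65 ± 0.31 in the Sox2 line (adjusted p = 0.305), and neither was called. Without the filter on low counts these adjusted p-values were 0.00241 and 0.04, with both changes still under the fold minimum.

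The rise of the targets in Oct4 KO late ICMs was recomputed within each set. Within set 1, 7 of 9 members were called where 16.4% of genes were: Trp53 lower, and Cdkn1a, Ccng1, Phlda3, Trp53inp1, Zmat3 and Bbc3 higher. Within set 2, 2 of 9 were called where 10.2% of genes were, Trp53 (-2.58 ± 0.50, adjusted p = 4.93e-04) and Ccng1 (1.38 ± 0.37, adjusted p = 0.0107). The values within set 2 for Zmat3 (1.33 ± 0.47, adjusted p = 0.0560) and Trp53inp1 (1.05 ± 0.38, adjusted p = 0.0590) were close to those within set 1 (1.54 and 1.02). Cdkn1a was 1.75 ± 0.58 (adjusted p = 0.0245) within set 1 and 0.73 ± 0.67 (adjusted p = 0.530) within set 2, and Phlda3 was 1.11 ± 0.42 (adjusted p = 0.0498) and 0.67 ± 0.50 (adjusted p = 0.413). Bbc3 differed in sign, with 2.23 ± 0.64 (adjusted p = 0.00978) within set 1 and -0.74 ± 0.82 (adjusted p = 0.611) within set 2. Bbc3 averaged 19.1 ± 12.99 CPM in set 1 KO and 4.22 ± 2.67 CPM in set 2 KO (SD, n = 4 each). Whether the KO effect differed between sets was not tested. In the Sox2 line no member was called within set 1 (2.84% of genes), where Trp53 was -0.73 ± 0.45 (adjusted p = 0.445), and Trp53 was called within set 2 (-1.39 ± 0.43, adjusted p = 0.0410; 5.32% of genes).

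**Figure D4:**
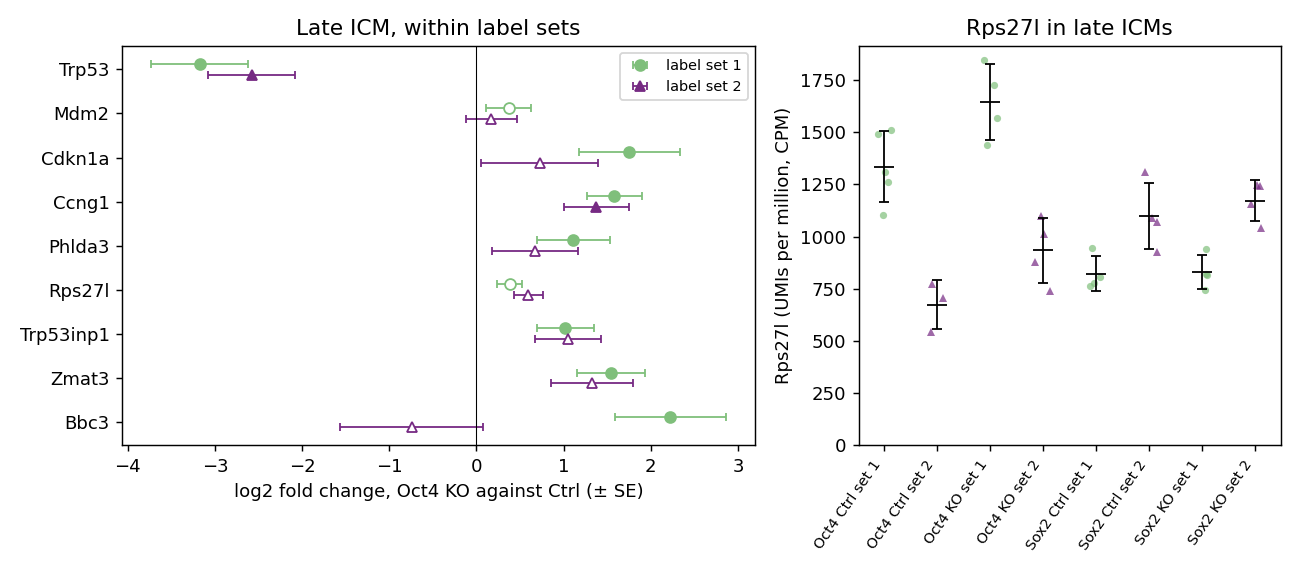
Left, log2 fold change of Oct4 KO against Ctrl late ICMs (± SE) within label set 1 (circles) and label set 2 (triangles), filled where both thresholds were passed; right, Rps27l in every late ICM by line, genotype and set in CPM, with mean ± SD. Bbc3 lies at 2.23 within set 1 and at -0.74 within set 2, and Rps27l is lower in set 2 in the Oct4 line and higher in set 2 in the Sox2 line.

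Embryos of the same group differed in their target levels, and most pairs of targets deviated in the same direction from embryo to embryo. Each embryo's log2(CPM + 1) was taken as a deviation from its group mean, over all embryos of the series, and correlations are given as a description, since the 2 genes of a pair share libraries and depth. Among 7 targets, leaving out Rps27l after its values were seen, Pearson's r was above 0 in all 21 pairs, from 0.234 to 0.693 with a median of 0.516. For Rps27l with these 7 targets it was above 0 in 6 of 7 pairs, from -0.01 to 0.368 with a median of 0.254. The share of positive pairs over all genes was not computed. Among the 7 targets the median was 0.566 over 39 morulae, 0.545 over 44 early ICMs and 0.317 over 40 late ICMs. Mdm2 with Zmat3 was at -0.175 over the late ICMs, the only pair of these below 0 within a stage. The closest pair was Ccng1 and Phlda3 (0.693), and Phlda3 (0.638) and Ccng1 (0.615) were the 2 genes most like Cdkn1a among 7919 genes compared, followed by Slc19a2 (0.583), Ctsd (0.556) and Dhx16 (0.536). Zmat3 had rank 28 for Cdkn1a and rank 97 for Mdm2. For Trp53 with the 8 targets r lay between -0.154 and 0.032, with a median of -0.022. Correlations of the 9 members with depth lay between -0.102 and 0.118.

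The embryo that was highest for the most of these 7 targets led at least 4 of them in 10 of the 16 groups and 3 in the other groups. Trp53 in that embryo ranked anywhere from 1 (highest) to 8 (lowest) within its group. Embryos that were at one end of their group for at least 6 of the 7 targets were the following 3. The Sox2 Ctrl morula 12 was the highest of its 8 embryos for all 7 targets, with Cdkn1a at 267.1 CPM against a group median of 81.7 CPM and Mdm2 at 164.2 against 69.3 CPM, while its Trp53 level of 75.4 CPM ranked second. The Oct4 KO early ICM 11 was the lowest of its group for 6 of 7 targets, with Cdkn1a at 44.5 CPM and Phlda3 at 0 CPM, and its Trp53 level of 18.9 CPM was also the lowest of that group. The Oct4 Ctrl late ICM 2-4 was the highest of its group for 6 of 7 targets, and its Trp53 level of 105.4 CPM had rank 4 of 8.

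**Figure D5:**
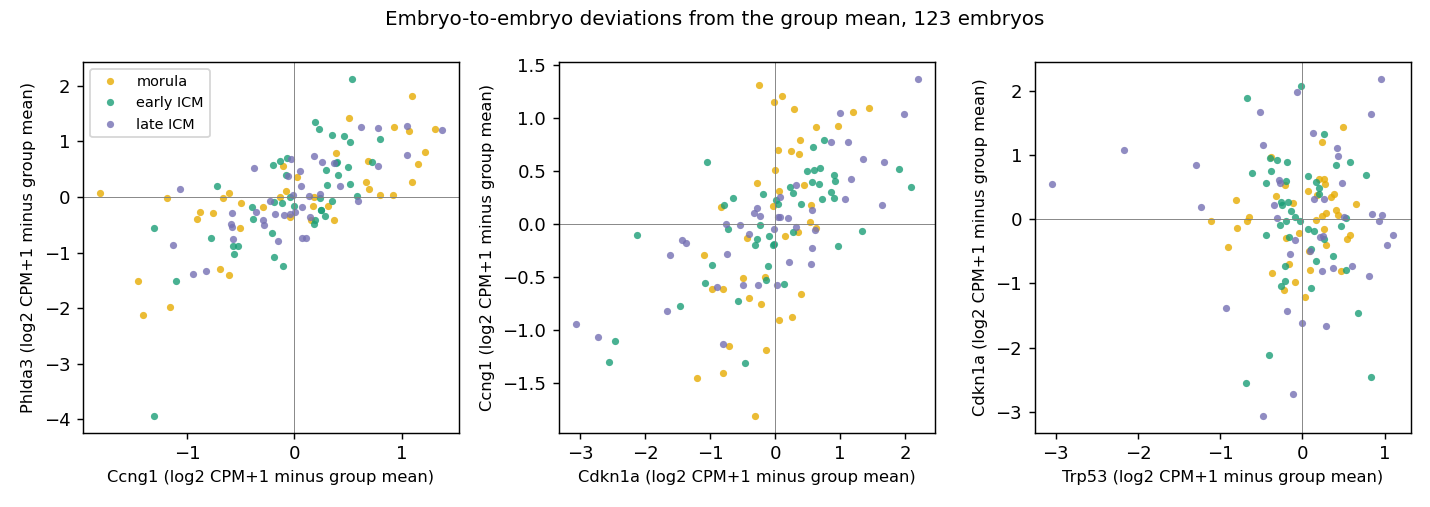
Deviation of every embryo from its group mean, in log2(CPM + 1), for Ccng1 and Phlda3 (left), Cdkn1a and Ccng1 (middle) and Trp53 and Cdkn1a (right); points are embryos coloured by stage. Pearson's r is 0.693 in the left and 0.615 in the middle plot, and -0.033 in the right plot.

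Over the 16 group means, the genes with the profile most like that of Trp53 were Mex3b (r = 0.95), Kdm3a (0.93) and Plcg1 (0.92). For Ccng1 they were Sdc4 (0.94), C430049B03Rik (0.92) and Ptpra (0.92), for Cdkn1a Wars2 (0.87), Ppp1r14a (0.87) and H3f3b (0.86), and for Mdm2 Aph1a (0.78), Nck2 (0.74) and F11r (0.70). These values describe 16 points that share line, stage and genotype, among 7919 genes.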

How the data were processed

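RNA of single embryos was measured by 3′-enriched sequencing with UMIs. The authors' processing notes name UMI-tools, cutadapt, TopHat2, Bowtie2, featureCounts and DESeq2 with mm10, and their methods add the GENCODE annotation. The authors deposited UMI counts per gene (525755 to 1344035 per embryo) and a table of log2-scale rlog values. Tests used the counts. The rlog values served as an alternative.

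Genes detected in a share of 0.5 or more of the embryos at any 1 stage were fitted with edgeR 4.0.16 (TMM, quasi-likelihood, Benjamini-Hochberg adjustment) in R 4.3.3. KO, stage and interaction comparisons used 96 Ctrl and KO embryos (14053 genes), MWT comparisons all embryos (13923 genes) and label sets 32 late ICMs (12449 genes). Calls required an adjusted p under 0.05 and a log2 fold change of at least 1 in size, and the SE is the log2 fold change divided by the square root of F. CPM is not TMM-scaled. The script was tested on simulated data.

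The 9 genes were chosen by name, and all are described. Lists gave counts, with at most 4 genes named per list and direction by size of change, and likeness was ranked among genes with at least 20 CPM in 1 group. The members and lists were chosen with earlier results of these data known. The 416 pairs of embryos within groups held no duplicate libraries (lowest chi-square per gene 2.41). Alternatives were DESeq2 1.42.0, RLE scaling, totals alone, no filter, no fold minimum, thinned counts, limma 3.58.1 on rlog values, other sets of embryos, blocks and leaving out single embryos.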

Additional observations from a re-analysis of the deposited data

Results flagged for a closer look

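Single embryos stood apart from their groups, by a gap to the nearest embryo that was large for the group's whole range (Dixon's test), in 16 of 144 combinations of gene and group. The critical values mark about 1 in 20 groups by chance where values are independent and normally distributed. The test was made on linear CPM, and the 16 came from 11 embryos. The share of 1 in 20 therefore does not show whether 16 is an excess. The separate embryo was the highest in each of the 16.

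The Sox2 Ctrl morula 12 stood apart for 4 targets, Cdkn1a (gap 0.646 of the range), Mdm2 (0.587), Phlda3 (0.548) and Trp53inp1 (0.649). The Sox2 Ctrl late ICM 2-3 did so for Ccng1 (0.702) and Bbc3 (0.647), and the Oct4 MWT morula 10 for Phlda3 (0.826) and Zmat3 (0.703). Mdm2 also had a separate highest embryo in Oct4 MWT late ICMs (0.645) and in Sox2 early ICMs of Ctrl (0.661), KO (0.603) and MWT (0.674). The remaining ones were Ccng1 in Oct4 Ctrl late ICMs (0.576), Phlda3 in Oct4 KO morulae (0.598), Rps27l in Oct4 MWT morulae (0.591) and Trp53 in Sox2 KO late ICMs (0.595).

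The Oct4 KO effect differed between late and early ICMs by an interaction test for Ccng1 (1.53, log2), Phlda3 (1.76) and Zmat3 (2.17). The Oct4 and Sox2 KO effects in late ICMs differed for Trp53 (-1.52).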

How the results depend on the processing

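Counts of called members are given here where they moved by more than 1.5 times, and in each such case the cause was not tested unless the setting itself shows it. No value of a called gene reversed. Without the fold minimum, which by construction adds smaller changes, the counts were 2 in Sox2 KO early and 2 in Sox2 KO late ICMs, 4 and 4 from morula to early ICM in Oct4 and Sox2 Ctrl, 1 in Oct4 MWT late ICMs, 2 in Sox2 MWT early ICMs and 1 between label sets of the Sox2 line. All genes called under the same rule were 989, 1935, 6748 and 7270 of 14053, then 220 and 881 of 13923 and 220 of 12449. With totals alone the member counts were 1 from morula to early ICM in Oct4 Ctrl, where 4091 of 14053 genes were called, and 0 between Oct4 label sets, where 191 of 12449 were. That scaling moved the median of all genes by over 0.1 (log2) in 5 of 24 comparisons, by at most -0.177. Without the filter 2 members were called within set 2 of the Sox2 line, where 955 of 23207 genes were. With limma on rlog values the counts were 0 in Sox2 KO early and 0 in Sox2 KO late ICMs (Trp53 -0.93 and -0.78), 1 and 1 for the 2 steps in Oct4 Ctrl, 2 for the difference between lines in late ICMs, 0 between Oct4 label sets and 4 within set 1 of the Oct4 line, and Trp53inp1 in Oct4 KO late ICMs had a change of 0.96. In the same order, all genes called with limma were 205, 438, 1935, 857 and 668 of 13917, then 59 and 1402 of 12425.

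Whether replicate numbers pair Ctrl with KO embryos is not known. No line and stage with 3 or more shared numbers had all correlations of deviations over 0.1, which does not exclude pairing. In Sox2 late ICMs the correlations were -0.021, 0.086, 0.154 and 0.195. There the own number was the best match for 1-5, 2-3 and 2-6 but not for 1-1. In Oct4 morulae no own number was the best match, and in Sox2 early ICMs only number 2 was. With the replicate block on same-numbered embryos, 1 member was called in Oct4 KO morulae (Phlda3, 1.35; 3 shared numbers), where 277 of 13507 genes were. In Oct4 KO early ICMs (2 shared numbers) 2 were called, Trp53, and Phlda3 at -1.41, where 849 of 13584 genes were. As in the main fit, Trp53 alone was called in Sox2 KO early and late ICMs (4 shared numbers each), where 274 of 13123 and 542 of 13269 genes were. The same embryos without the block gave 2 in Oct4 early (Phlda3 at -1.38), 0 in Sox2 early and 0 in Sox2 late ICMs, where Trp53 was -1.13 and -1.15. All genes called in these fits were 750 of 13584, 199 of 13123 and 303 of 13269.

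Leaving out 1 embryo at a time gave 5 to 7 called members in Oct4 KO late ICMs, 1 to 2 in Sox2 KO late ICMs, 0 to 1 between Oct4 label sets and 0 to 0 in Oct4 MWT early ICMs and between Sox2 label sets. In the same order, all genes called were 2375 to 2535, 839 to 1043, 121 to 236, 24 to 71 and 25 to 64. Without the Sox2 Ctrl embryo 2-3, Ccng1 was called in Sox2 KO late ICMs (1.10 on the log2 scale). Bbc3 in Oct4 KO late ICMs ranged from 0.67 to 1.45 and its adjusted p from 0.0258 to 0.368. Rps27l between Oct4 label sets ranged from -1.07 to -0.96, so that the fold minimum alone decided its call. The median correlation over 21 target pairs was 0.477 by Spearman's rho and 0.513 with label set means removed, both chosen after seeing the data. Low counts limit Bbc3, which had 695 UMIs over all embryos. They also limit Trp53 in Oct4 KO late ICMs, with 76 UMIs in all and 20 in set 1. Zmat3 in Oct4 Ctrl late ICMs had 53 UMIs in all and 18 in set 2.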
